A study of Arabidopsis thaliana with 15 samples.

Results

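Leaf disks of Arabidopsis thaliana, ecotype Col-0, were compared between 48 h and 36 h of culture in a medium that induces xylem differentiation, the last 12 h of a time course of 5 samplings. The comparison rests on 6 of the 15 arrays of the series, the 3 of 48 h and the 3 of 36 h, over all probe sets that are not Affymetrix controls. Rosette leaves of seedlings 25 days old, grown at 22 °C in continuous light, supplied disks of 1 mm, and the medium held 1.25 mg/L of 2,4-D, a synthetic auxin, 0.25 mg/L of the cytokinin kinetin and 10 µM of bikinin, an inhibitor of GSK3 kinases that restrain brassinosteroid signalling. The 48 h and 36 h disks differed only in time in this medium, and those of 24 h, 12 h and 0 h serve below to show what had moved earlier. No disks cultured without the 3 compounds were among the samples, so the compounds, cutting, culture and time cannot be told apart. The labels number the replicates without saying that they were separate cultures, so the spread behind the p-values is that among these arrays and may be technical. The third array of 36 h has no number in its title and is counted as replicate 3.

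Xylem vessels form when procambial cells, the stem cells of the vascular bundle, stop dividing, thicken their walls with cellulose, the hemicellulose xylan and lignin, and then die and empty. The last phase runs through the vacuole, whose proteases clear the cell contents, and autophagy, in which small ATG8 proteins tag membranes that deliver cytoplasm to the vacuole, is known to take part in it. Leaf mesophyll cells, from which most of a disk is built, carry the photosynthetic machinery and the plastid genome. In bulk tissue of this kind fewer cells of a type and less RNA per cell cannot be told apart.

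One-colour arrays gave a signal per probe set, computed with the MAS5 algorithm, per the submitters' processing notes. Differences below are on the log2 scale of this signal, each with its standard error (SE) from a limma fit over all 15 arrays (n = 3 arrays per time). Folds are ratios of signals on the linear scale, so 2-fold is a log2 difference of 1. Of 22746 probe sets, 17829 passed a filter on dim signals, and 10011 of these could be named by 1 gene. The number of arrays limits the precision: the median SE of the difference was 0.354, and the median 95% interval reached 0.769 to either side. Marker genes of leaf cells were checked against the label. The summed mean signal of 4 mesophyll markers was 86841 at 0 h, 2861 at 36 h and 2665 at 48 h, whereas that of 3 procambium markers was 832, 3159.9 and 4001. A single guard cell marker, FMA, gave 425, 167 and 111. The phloem markers OPS and SWEET11 together gave 5852, 884 and 843, but they went opposite ways. SWEET11 had 5796, 94.7 and 54.1, and OPS had 55.9, 789 and 789. For 2 xylem vessel markers, IRX15 and IRX15-L, the summed mean signal was 165, 1606 and 2292. That of 3 markers of dividing cells was 518, 6559 and 6646. Most regulators and wall enzymes that define vessels and all fibre markers looked for were not among the named probe sets and were not analysed here.

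Between 48 h and 36 h no single gene passed the test, and the gene groups described below had median differences of less than 2-fold. At an adjusted p under 0.05 by limma's moderated test, 0 of 17829 probe sets were called (0%), and the lowest adjusted p was 0.904. Without adjustment, a p under 0.05 was reached by 424 probe sets that were higher at 48 h (2.38%) and 218 that were lower (1.22%), 642 in all where a flat distribution gives 891. With the replicate number as a block these counts were 605 and 373, and the call count was again 0. The 3 arrays of 48 h lay above all 3 of 36 h for 1009 probe sets (5.66%) and below them for 1119 (6.28%). Differences of 2-fold or more were found for 1001 probe sets at 48 h against 36 h (5.61%) and for 2119 at 36 h against 24 h (11.9%), and the median size of the difference was 0.216 and 0.323 in these 2 steps. For 8554 probe sets (48%) the 95% interval of the late step lay within 2-fold either way, and a gene is called levelled off below where this holds. The rule limits the size of the late step and does not show that it was 0, so a gene with a small difference in every array can meet it. Its intervals come from the fit without the replicate block, and no count under the block is given here. The remaining probe sets had wider intervals, and a p above the threshold does not show that they had stopped.

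**Figure D1:**
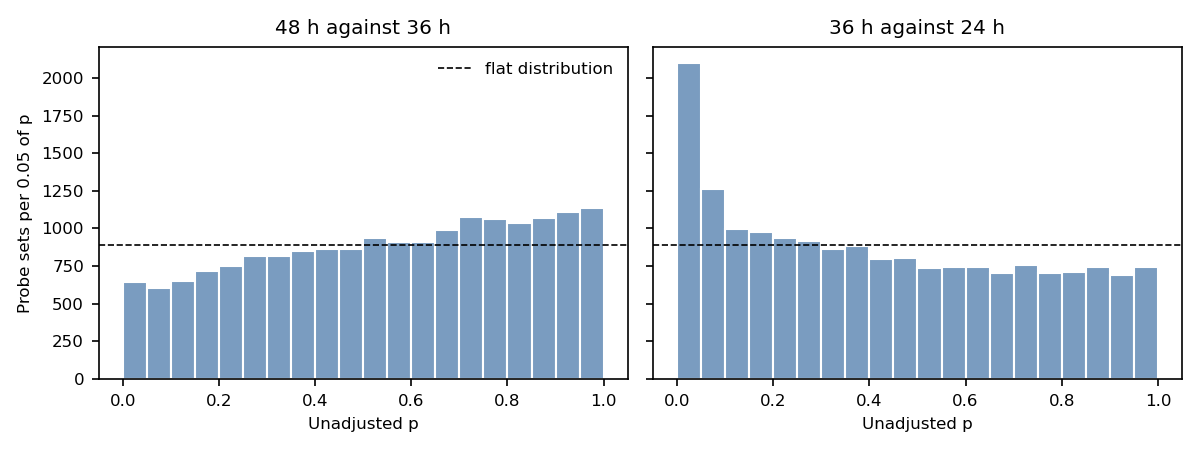
Number of probe sets (y axis) in bins of the unadjusted p of limma's test (x axis), for 48 h against 36 h on the left and 36 h against 24 h on the right, with a dashed line where a flat distribution would lie. The lowest bin of the late step holds 642 probe sets, below the line at 891, and that of the earlier step holds 2100.

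The arrays of the 2 times were not cleanly separate. Arrays with the same number correlated at r = 0.949 to 0.96 between 48 h and 36 h, and arrays with different numbers at 0.88 to 0.945, where arrays within 48 h correlated at 0.918 to 0.948. On the second principal component the 48 h arrays scored 89.4, 50.1 and 37.3 and the 36 h arrays 69.5, 30.7 and -9.4 for replicates 1, 2 and 3. Each 48 h array thus scored above its own 36 h partner, but the 36 h array of replicate 1 scored above the 48 h arrays of replicates 2 and 3. Deviations from the group means ran together in arrays of the same number (r = 0.476, 0.324 and 0.463, the last with the unnumbered array) and not in arrays of different numbers (-0.397 to -0.097).

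The largest late increases belonged to 12 genes that the annotation lists only by locus number. They were chosen as the highest differences with no overlap between the groups and a group mean signal of at least 100, and none was called, so they are described by their values. AT5G67050 had signals of 3623, 599 and 798 at 48 h, against 231, 98.9 and 208 at 36 h, a log2 difference of 2.84 ± 0.74. For AT1G77700 the signals were 4506, 834 and 651 at 48 h, against 364, 171 and 193 at 36 h, with a difference of 2.56 ± 0.62. In both genes every 48 h array was above every 36 h array, and the 48 h array of replicate 1 stood several-fold above the other 48 h arrays. AT2G44930 gave 2808, 678 and 602 at 48 h and 397, 109.7 and 117 at 36 h, a difference of 2.60 ± 0.65. AT5G48060 gave 4251, 1238 and 887 at 48 h and 629, 215 and 139 at 36 h, a difference of 2.65 ± 0.73. The 12 genes also include AT1G06170, AT3G20450, AT1G61760, AT2G28580, AT5G20870, AT5G67550, AT3G15800 and AT1G61830, and their differences all lay between 2.52 and 2.85. Replicate 1 was the highest array of its time in 12 of 12 at 48 h, by 2.81-fold to 8.66-fold over the next array, and in 12 of 12 at 36 h. Leaving out the 48 h array of replicate 1 gave differences of 1.51 to 2.16 for these genes, all of the same direction. All 12 were also called higher at 48 h than at 24 h, and their step at 36 h against 24 h had been 0.78 to 2.12, in comparisons that share the 48 h or 36 h arrays with the late step.

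**Figure D2:**
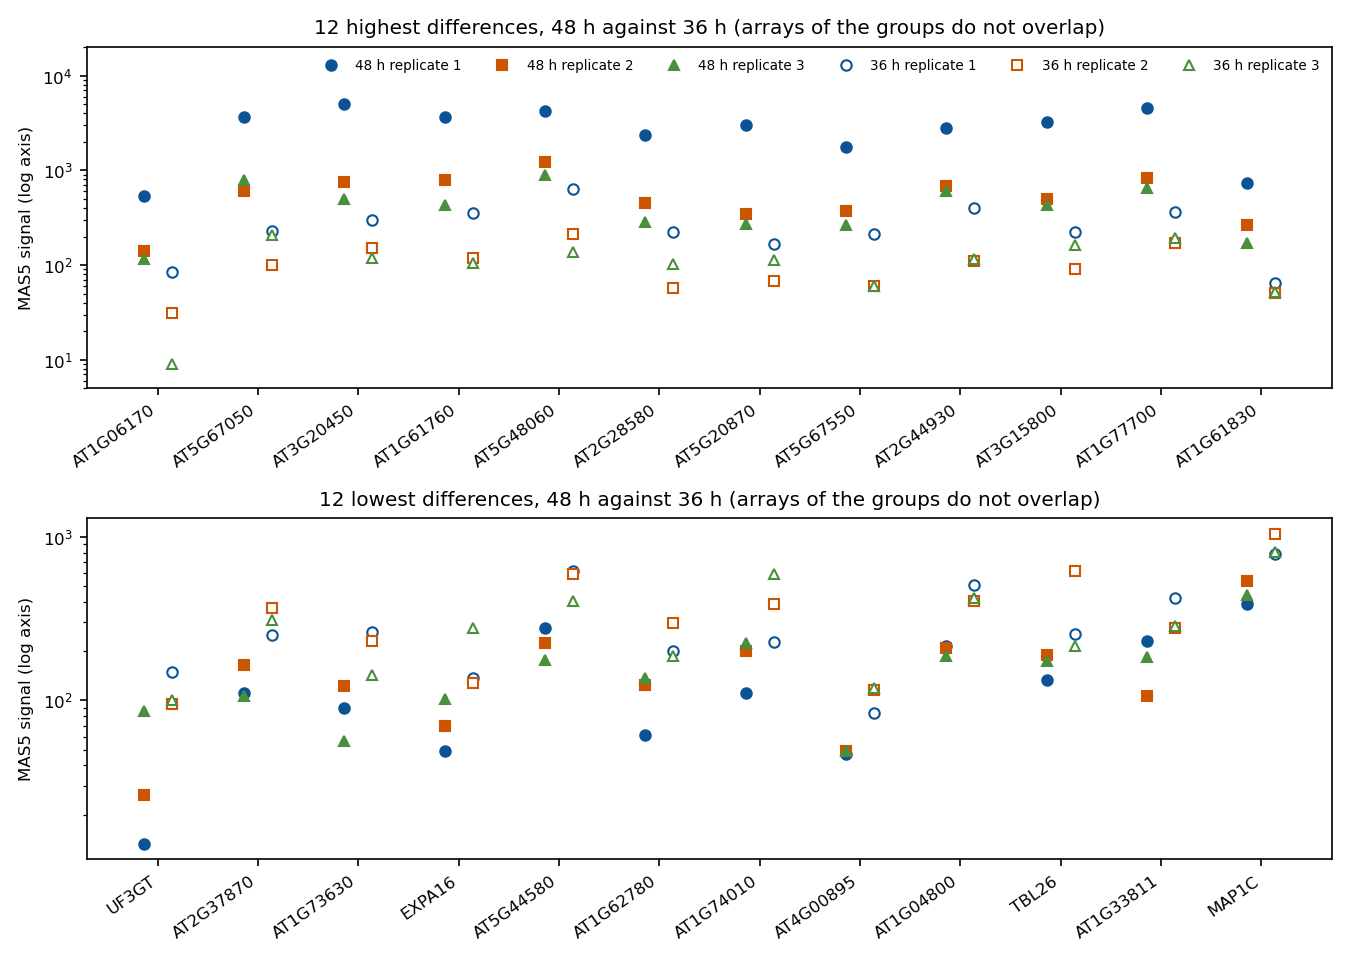
Signal on a log axis (y) in each array for the 12 highest (top) and 12 lowest (bottom) differences between 48 h (filled) and 36 h (open), by replicate. In the top panel the filled circles of replicate 1 stand 2.81-fold to 8.66-fold above the next 48 h array; in the bottom panel the 48 h arrays lie below all 36 h arrays of the same gene.

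The largest late decreases, chosen by the same rule, were smaller, between -1.86 and -0.96. UF3GT, a glycosyltransferase of anthocyanin synthesis, had signals of 13.3, 26.2 and 86.4 at 48 h, against 149, 95.1 and 101 at 36 h, a difference of -1.86 ± 0.68. EXPA16, an expansin, a protein that loosens growing walls, had 49, 69.6 and 101 at 48 h, against 137, 127 and 276 at 36 h (-1.26 ± 0.69). MAP1C, a methionine aminopeptidase of organelles, had 389, 534 and 437 at 48 h, against 783, 1046 and 809 at 36 h (-0.96 ± 0.36). In these 3 genes the groups did not overlap, with the 48 h array of replicate 3 of UF3GT close to its 36 h arrays. TBL26, of a family of wall polysaccharide acetyltransferases, had 133, 190.2 and 174 at 48 h, against 255, 615 and 216 at 36 h (-0.98 ± 0.77). The remaining 8 are known here only by number. Among them AT4G00895 had 47.2, 49.1 and 48.9 at 48 h, against 83.8, 116 and 119 at 36 h (-1.12 ± 0.29), and its 48 h arrays lay close together. AT1G62780 had 61.2, 124 and 137 at 48 h, against 199, 297 and 186 at 36 h (-1.13 ± 0.32). AT5G44580 had 278, 223 and 177 at 48 h, against 621, 594 and 404 at 36 h (-1.25 ± 0.40). AT2G37870, AT1G73630, AT1G74010, AT1G04800 and AT1G33811 complete the 12. Of the 12, 6 were called lower at 48 h than at 24 h, and the step at 36 h against 24 h had been -1.86 to -0.33. Both earlier comparisons share arrays with the late step and are set beside it only.

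Genes that went on in 1 direction were sought among those called between 48 h and 24 h, a span that contains the late step. There 731 probe sets were higher (4.1%) and 412 lower (2.31%). With the replicate number as a block these counts were 1191 and 838. Over the 731 the median difference was 1.33 at 36 h against 24 h and 0.62 at 48 h against 36 h, and 721 of them were higher at 48 h than at 36 h. Over the 412 it was -0.87 and -0.53, and 404 were lower at 48 h. The late step made up a median of 33.6% of the whole 24 h change in the first class and 38.1% in the second. It was the larger of the 2 steps for 173 and 92 probe sets. The rule for levelled off was met by 158 of the 731 (21.6%) and 135 of the 412 (32.8%), beside 48% of all probe sets. These classes were chosen with the 48 h arrays, so the direction of their late step follows from the choice and is given as a description. The counts of called probe sets rested on single arrays: without the 48 h arrays of replicates 1, 2 and 3 the higher calls numbered 293, 483 and 482, and without the 24 h arrays of replicates 2 and 3 they numbered 378 and 372. The lower calls numbered 115, 231 and 204 without the 48 h arrays and 209, 136 and 159 without the 24 h arrays.

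**Figure D3:**
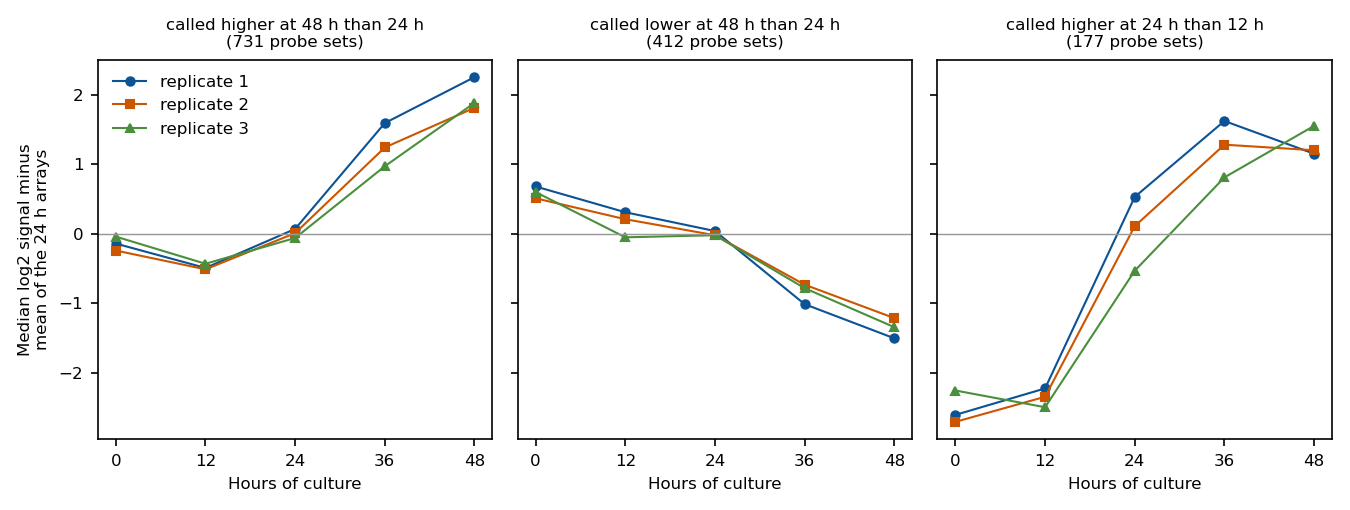
Median over 3 classes of probe sets of the log2 signal minus the mean of the 24 h arrays (y axis) against hours of culture (x axis), with a line for each replicate. In the 2 classes called between 48 h and 24 h all 3 lines go on in the same direction after 36 h; in the class called higher at 24 h than at 12 h the 48 h medians are 1.15, 1.2 and 1.55 and the 36 h medians 1.62, 1.28 and 0.81.

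Genes with a symbol in the increasing class included stress, signalling, wall and cytoskeleton genes, and those given here were picked after their values were seen. Of the 731 probe sets 429 were named by 1 gene, and 49 of these have a symbol. In 37 of the 49 the signal was higher at 48 h in all 3 replicate pairs, and in 14 it was 2-fold or more higher, counts that the choice by the 48 h arrays favours. GSTF4, a glutathione transferase, had 4463, 942 and 853 at 48 h, against 427, 202 and 319 at 36 h (2.34 ± 0.59), after a step of 2.02 at 36 h against 24 h. BGLU33, a beta-glucosidase, had 14509, 7753 and 7329 at 48 h, against 6460.1, 2184 and 1356 at 36 h (1.81 ± 0.56), after an equal earlier step of 1.81. CML30, a calmodulin-like calcium sensor, had 6029, 2299.6 and 1275 at 48 h, against 1867, 590.3 and 313 at 36 h (1.89 ± 0.60). In GSTF4 and BGLU33 the groups did not overlap. In CML30 they did, as the 36 h array of replicate 1 lay above the 48 h array of replicate 3. NTL, an NTF2-like protein, had 3848, 1384 and 1029 at 48 h, against 789, 348 and 239 at 36 h (2.13 ± 0.53). PM-ANT, an adenine nucleotide transporter of the plasma membrane, had 1265, 455 and 350.0 at 48 h, against 310.2, 207 and 212 at 36 h (1.30 ± 0.45). MYR2, a MYB-related transcription factor, had 1122, 483 and 356 at 48 h, against 368, 162 and 96 at 36 h (1.69 ± 0.58). NTL and PM-ANT had no overlap, and MYR2 overlapped by its replicate 1 at 36 h. Replicate 1 was the highest 48 h array in each of these 6 genes.

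Other increasing genes had 48 h arrays that lay closer together. PLIM2b, which bundles actin filaments, had 631, 565 and 779 at 48 h, against 425, 267 and 361 at 36 h (0.92 ± 0.32). NET2D, an actin-binding protein, had 158, 158 and 132 at 48 h, against 82.6, 86.6 and 97.3 at 36 h (0.75 ± 0.28). LigB, an extradiol dioxygenase-like protein, had 497, 332 and 355 at 48 h, against 231, 224 and 203 at 36 h (0.83 ± 0.25). All 48 h arrays of these 3 genes lay above all 36 h arrays. The unadjusted p was 0.0131 for PLIM2b, 0.0201 for NET2D and 0.00538 for LigB. DI19, a drought-induced zinc-finger protein, gave 2895, 3319.6 and 2499.6 at 48 h, against 2287, 2256 and 1676 at 36 h (0.49 ± 0.20). The transcription factor GT-1 differed by 0.45 ± 0.22. DI19 and GT-1 did not overlap either, but the 95% intervals of both lay within 2-fold, so they meet the rule for levelled off. The larger part of the change of 3 microtubule genes of this class lay before 36 h. TUB1, a beta-tubulin, had a late step of 0.28 ± 0.51 after 1.64, TON1B, which organises cortical microtubules, 0.40 ± 0.25 after 1.08, and the microtubule-associated ATMAP65-6 0.48 ± 0.42 after 1.29.

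The median of the autophagy list was higher at 48 h by similar amounts in the 3 replicate pairs, but single genes differed between pairs. ATG8H, for example, had pair differences of 2.05, 1.25 and 0.88. Apart from ATG3 and AT5G66930, the measured members all belong to the ATG8 family. Of 11 measured members, 10 were higher at 48 h in all 3 replicate pairs, as 19% of all probe sets were, and the median difference was 0.49 (0.46, 0.52 and 0.47 in the 3 pairs) beside -0.01 over all probe sets. The 48 h arrays lay wholly above the 36 h arrays for 6 of the 11 (5.66% of all probe sets), and an unadjusted p under 0.05 was reached by 4 (2.38%). The 95% interval lay within 2-fold for 5 of the 11, ATG8C, APG8H, ATG8D, ATG3 and ATG8G, a share of 45.5% near the 48% of all probe sets. ATG8H had signals of 1524, 701 and 454 at 48 h, against 369, 295 and 246 at 36 h (1.39 ± 0.58). For ATG8E the signals were 316, 444 and 158 at 48 h and 123, 172 and 78.6 at 36 h (1.24 ± 0.47). APG8A, an ATG8A gene, gave 2475, 1172 and 1329 at 48 h and 636, 624 and 1138 at 36 h (1.03 ± 0.45). ATG8H and APG8A did not overlap between the groups, though in APG8A the 36 h array of replicate 3 came close to the 48 h arrays. ATG8B gave 792, 789.7 and 567 at 48 h and 253, 436 and 445 at 36 h (0.95 ± 0.33), also without overlap. ATG8E, which tags membranes like the others, overlapped by 1 array at either time. AT5G66930, the ATG101 gene of the complex that starts autophagosome formation, had a difference of 0.70 ± 0.33. ATG8F and ATG8C differed by 0.49 ± 0.33 and 0.38 ± 0.23, and their 48 h arrays all lay above the 36 h arrays. Smaller differences were 0.29 ± 0.25 for APG8H, a separate gene from ATG8H, and 0.25 ± 0.33 for ATG8D. ATG3, the enzyme that couples ATG8 to lipid, differed by 0.24 ± 0.22. ATG8G had a difference of 0.00 ± 0.45.

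The late step of the autophagy list was larger than its step at 36 h against 24 h, which had a median of 0.31. Between 24 h and 0 h the list had moved the other way, by a median of -1.02, with 5 of 11 members called lower, beside 22.2% of all probe sets. By 48 h, 4 members were called higher than at 24 h (4.1% of all probe sets were), ATG8H (2.32, adjusted p = 0.0355), ATG8E (1.87, 0.0348), AT5G66930 (1.20, 0.0466) and ATG3 (0.81, 0.0465).

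**Figure D4:**
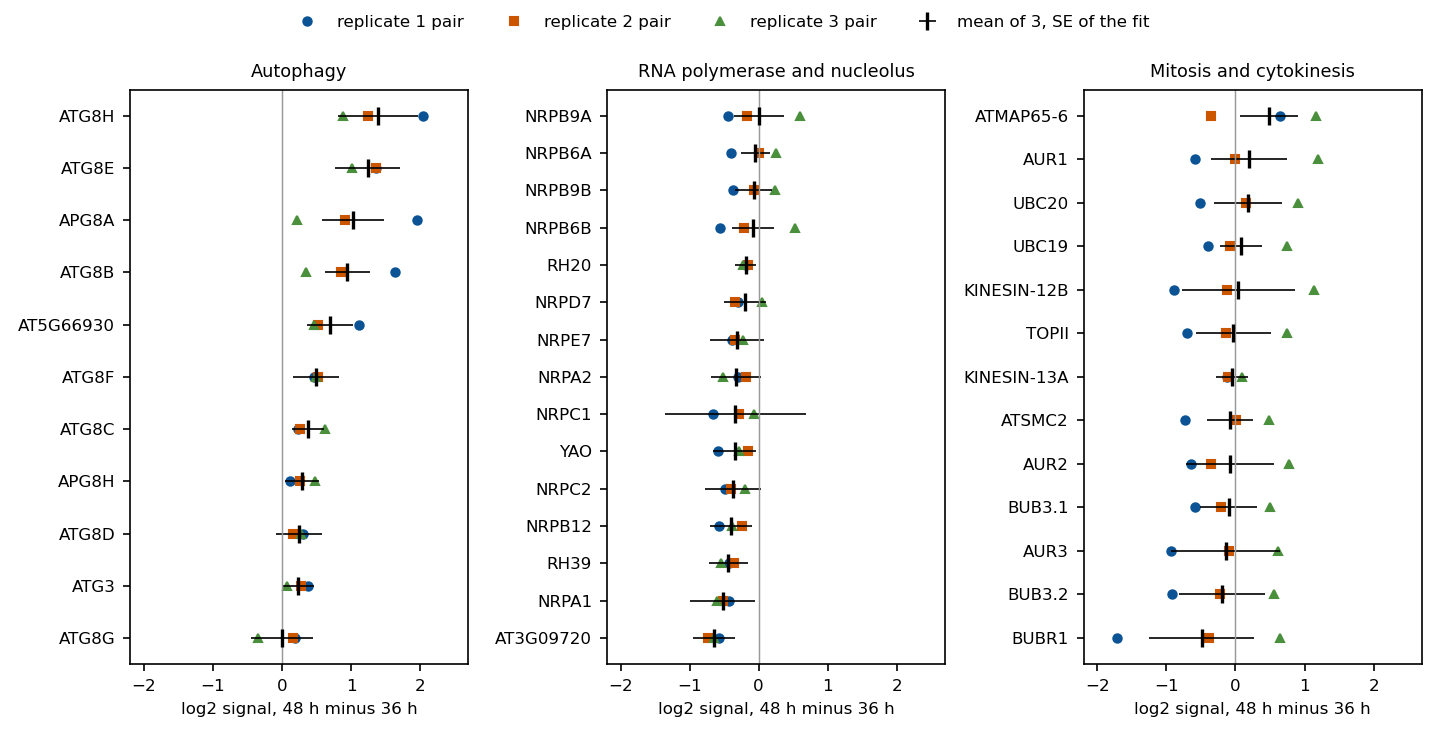
Difference in log2 signal between 48 h and 36 h (x axis) for each member of 3 lists, with the 3 replicate pairs as coloured points and the fitted difference with its SE as a black bar. Autophagy pairs lie above 0 apart from ATG8G in replicate 3, most pairs of the middle list lie below 0, and mitotic genes spread with replicate 1 below 0 and replicate 3 above it for 12 of 13 genes.

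The secondary wall and xylem cell-death lists had larger median steps at 36 h against 24 h than after 36 h. No member of either list reached an unadjusted p under 0.05 by limma's test in the late step. Their medians describe the gene families named below, not xylem walls or cell death as such. The secondary wall list had 22 measured members, of which 18 belong to the TBL family of wall polysaccharide acetyltransferases, some of them acting on xylan. Its median was 0.30 at 48 h against 36 h and 0.49 at 36 h against 24 h. Of the 18 TBL genes 12 were higher at 48 h, and so were all 4 others. IRX15, which is needed for normal xylan, had signals of 737, 675 and 842 at 48 h, against 457, 658 and 276 at 36 h (0.78 ± 0.82), after a step of 3.94. Its close relative IRX15-L had 1859, 1443 and 1371 at 48 h, against 1470.1, 1725 and 631 at 36 h (0.40 ± 0.60), after 2.73. GUT2, also known as IRX10, which extends the xylan backbone, had 1582, 974 and 1005 at 48 h, against 1066, 1268 and 352 at 36 h (0.57 ± 0.45), after 2.18. In all 3 genes the 36 h array of replicate 3 was the lowest of the 6. Only for IRX15 did the groups not overlap. GUT1, the relative of GUT2, had a difference of 0.01 ± 0.20. The median of the list was -0.01 without the 36 h array of replicate 3, 0.06 without the 48 h array of replicate 1 and 0.46 without the 36 h array of replicate 1. The summed signal of the vessel markers IRX15 and IRX15-L, members of this list, was 2118 to 2597 in the 48 h arrays, against 908 to 2382 in the 36 h arrays.

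Of 5 measured vacuolar processing enzymes and serine carboxypeptidases, proteases of families known from vessel cell death, GAMMA-VPE, a vacuolar processing enzyme, had the highest late step, with 1584, 2335 and 2526 at 48 h, against 899.7, 1038 and 1643 at 36 h (0.87 ± 0.42). Its groups overlapped, since the 36 h array of replicate 3 lay above the 48 h array of replicate 1, yet each 48 h array lay above its own 36 h partner. The serine carboxypeptidase gene scpl48 had 5481, 9286 and 9428 at 48 h, against 5094, 7139 and 6082 at 36 h (0.37 ± 0.28), after 1.57. ALPHA-VPE, SCPL49 and BETA-VPE differed by 0.44 ± 0.97, -0.01 ± 0.34 and -0.64 ± 0.52. The median of the 5 was 0.37 and lay between 0.24 and 0.60 when single arrays were left out.

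Lignin genes differed in direction. HCT, an enzyme of monolignol synthesis, had 2219, 2022 and 1802 at 48 h, against 1549, 1622 and 833 at 36 h (0.65 ± 0.28, unadjusted p = 0.0354), with no overlap. AT5G66390, the peroxidase PRX72, had 103.3, 226 and 136 at 48 h, against 62.6, 64.3 and 54 at 36 h (1.29 ± 1.49), also with no overlap. The other 7 members had differences from -0.74 to 0.24, and the median of the list was -0.31, or -0.05 without the 36 h array of replicate 2 and -0.14 without the 48 h array of replicate 2. Beta-glucosidases, enzymes that release sugars from stored glycosides, were higher at 48 h for 12 of 15 members, with a median of 0.29 and 4 members called higher than at 24 h, where 4.1% of all probe sets were. The late interval lay within 2-fold for 1 of the 15. After BGLU33 the highest was BGLU28, with 4412, 7542 and 1154 at 48 h, against 999, 5198 and 210.0 at 36 h (1.71 ± 1.00), where arrays of the same time differed more than the times did. Without the 48 h array of replicate 3 the median was 0.54.

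Genes of nuclear RNA polymerases and the nucleolus, and plastid-encoded genes, were lower at 48 h than at 36 h on balance. They had also been lower at 36 h against 24 h. Of 15 measured subunits of nuclear RNA polymerases and nucleolar proteins, 10 were lower at 48 h in all 3 pairs, where 20.7% of all probe sets were, and 0 were higher in all 3 pairs. The median was -0.33, with -0.43, -0.24 and -0.22 in the 3 pairs, after -0.27 at 36 h against 24 h and 2.10 at 24 h against 0 h. NRPA1, the largest subunit of RNA polymerase I, which makes ribosomal RNA, had 338, 379 and 498 at 48 h, against 456, 541 and 762 at 36 h (-0.52 ± 0.47). NRPA2, its second subunit, had 768, 853 and 965 at 48 h, against 948, 969.7 and 1372 at 36 h (-0.33 ± 0.36). YAO, a nucleolar protein of ribosomal RNA processing, had 673, 791 and 849.6 at 48 h, against 1014, 885 and 1039.5 at 36 h (-0.35 ± 0.31). The groups overlapped by single arrays for NRPA1 and NRPA2 and did not overlap for YAO, nor for AT3G09720 (-0.65 ± 0.30), the RNA helicase RH57. NRPC1 and NRPC2, the large subunits of RNA polymerase III, differed by -0.34 ± 1.02 and -0.37 ± 0.40, and small subunits shared among polymerases such as NRPB6A (-0.05 ± 0.21) and NRPB9A (0.00 ± 0.36) by little. RH39, which was counted with the list, acts on plastid ribosomal RNA and differed by -0.44 ± 0.28. Without the 48 h array of replicate 1 the median of the list was -0.15.

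Plastid-encoded genes were lower at 48 h for 60 of 69 members, with a median of -0.24 after -0.45 at 36 h against 24 h. The replicates did not agree in size: the pair medians were -0.42, -0.18 and 0.04, and the 48 h array of replicate 1 was the lowest of the 6 arrays for 56 of 69 genes. Without that array the median was 0.11, and without the 36 h array of replicate 1 it was -0.43. psbC, a core antenna protein of photosystem II, had 612, 1030.2 and 1017 at 48 h, against 1076, 1650.4 and 1500.4 at 36 h (-0.69 ± 0.39), with no overlap. psbZ, another photosystem II protein, had 1697, 3185 and 3864 at 48 h, against 3603, 5002 and 4491 at 36 h (-0.65 ± 0.30), where the groups overlapped by replicate 1 of 36 h. The summed signal of 4 mesophyll markers was 1839 to 3413 in the 48 h arrays, against 1516 to 5018 in the 36 h arrays, and its part in these values was not tested. Of the 412 decreasing probe sets 46 were named by a symbol, among them nuclear genes for plastid proteins. TAAC, an ATP/ADP carrier of the thylakoid, had 147, 172 and 135 at 48 h, against 240.4, 271 and 235 at 36 h (-0.72 ± 0.30). FTSZ2-1, a plastid division protein, had 728, 839 and 940.4 at 48 h, against 1019.7, 1116 and 1404 at 36 h (-0.49 ± 0.21). GSA1, an enzyme at the start of chlorophyll synthesis, had 660.5, 495 and 612 at 48 h, against 791, 769.5 and 959 at 36 h (-0.52 ± 0.22). All 3 were below the 36 h arrays in every 48 h array, and for FTSZ2-1 and GSA1 the 95% interval lay within 2-fold, which meets the rule for levelled off. NTRC, a plastid thioredoxin reductase, had a late step of -0.33 ± 0.20 after -0.94, and HCF101, a plastid iron-sulfur protein, -0.04 ± 0.20 after -0.95, and both met the same rule.

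Sugar transporters of the SWEET family split. SWEET4 had 28.7, 36.2 and 17.9 at 48 h, against 43.1, 48.9 and 92 at 36 h (-1.13 ± 0.50). SWEET11, which exports sucrose to the phloem, had 72.6, 58.4 and 37.4 at 48 h, against 90.2, 89.8 and 105 at 36 h (-0.81 ± 0.28). SWEET1 had 64.2, 78.3 and 64.9 at 48 h, against 92.6, 111 and 155 at 36 h (-0.76 ± 0.33). These 3 were the members without overlap on the lower side, where 6.28% of all probe sets lay. Each was called lower than at 24 h, as 2.31% of all probe sets were. They were picked out after their values were seen. Of all 13 measured members 5 were lower and 8 higher at 48 h, so the family had no common direction. Among the higher members 1 lay wholly above its 36 h arrays, as 5.66% of all probe sets did.

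Of 4 measured flavonoid genes DFR, a reductase on the way to anthocyanins, followed UF3GT, with 14.7, 100.3 and 139.6 at 48 h, against 284, 175 and 116 at 36 h (-1.60 ± 0.82). Its replicate 3 pair went the other way. The other 2 flavonoid genes met the rule for levelled off, and the highest late step of the list was 0.01. The list median was -0.81, with -2.02, -0.7 and 0.08 in the 3 pairs. GTR2, a glucosinolate transporter, had 163, 162 and 166 at 48 h, against 302, 207 and 317 at 36 h (-0.72 ± 0.20), after a step of -0.02. BAT1, an acyltransferase that inactivates brassinosteroids, had 2.8, 2.67 and 2.52 at 48 h, against 22.3, 10.2 and 9.97 at 36 h (-2.31 ± 0.54), after 0.01. Every 48 h array of both genes lay below every 36 h array. The earlier step was near 0, and the signals of BAT1 at both times lay under the filter value of 30.7, which it passed through other times.

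Genes of cell division had a late step near 0 on average, with replicate pairs that went opposite ways. The mitosis and cytokinesis list, with 13 measured members, had a median of 1.29 at 36 h against 24 h and -0.05 at 48 h against 36 h, and 4 members had a 95% interval within 2-fold. The pair medians were -0.64, -0.13 and 0.74. AUR2, an Aurora kinase of the mitotic spindle, had 1819, 1514 and 1954 at 48 h, against 2838, 1945 and 1146 at 36 h (-0.08 ± 0.64), after 1.76. BUBR1, of the spindle checkpoint, had 135, 227 and 272 at 48 h, against 442, 299 and 173 at 36 h (-0.49 ± 0.76), after 1.64. UBC20, a ubiquitin-conjugating enzyme of dividing cells, had 4082, 4376 and 4290.0 at 48 h, against 5862, 3950.5 and 2281 at 36 h (0.18 ± 0.49). In all 3 genes the 36 h arrays spread from high in replicate 1 to low in replicate 3, and the 48 h arrays lay between those extremes or near the lower one. The 36 h array of replicate 1 was above that of replicate 3 for 13 of 13 members, whereas at 48 h replicate 1 was above replicate 3 for 3 of 13. For the dividing-cell markers AUR1, AUR2 and HTB2 the summed signal was 6221 to 7156 in the 48 h arrays, against 4539 to 9001 in the 36 h arrays. The list's median was 0.20 without the 36 h array of replicate 1, -0.28 without that of replicate 3, and 0.07, 0.03 and -0.16 without the 48 h arrays of replicates 1, 2 and 3.

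Histones, with 7 measured members, had a median of 0.01 after 0.34, and 5 of the 7 had an interval within 2-fold (48% of all probe sets did). HTB2, a histone H2B, had 3064, 3396 and 3621 at 48 h, against 3516, 4026 and 2700.0 at 36 h (-0.01 ± 0.23). Of 4 DNA replication genes the median was -0.03 after 0.28. PRL, the MCM7 subunit of the replicative helicase, had a difference of -0.38 ± 0.37. Tubulins had a median of 0.01 after 0.25 over 7 members, and TUB7 had 4921, 4581 and 5030.5 at 48 h, against 6134, 4699 and 3294 at 36 h (0.09 ± 0.54), after 0.96. In HTB2 and TUB7 the 48 h arrays lay within the range of the 36 h arrays.

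Procambium and cambium genes differed little between the 2 times. All 5 measured members were higher at 48 h, but by a median of 0.12, and 4 of 5 intervals lay within 2-fold. CLE41 and CLE44 encode the same peptide signal that keeps procambial cells dividing. CLE41 had 2199.8, 1506 and 1719 at 48 h, against 1622, 1225 and 1656 at 36 h (0.26 ± 0.32), and CLE44 had 1173, 2202 and 1969 at 48 h, against 719, 1666 and 1502 at 36 h (0.50 ± 0.52). The receptor kinase gene MOL1 and the transcription factor genes PHV and LHW differed by 0.12 ± 0.39, 0.07 ± 0.25 and 0.07 ± 0.41. All 5 had been called higher at 24 h than at 0 h. Their median was -0.05 without the 48 h array of replicate 3, 0.26 and 0.27 without the 48 h arrays of replicates 1 and 2, and 0.06 and 0.34 without the 36 h arrays of replicates 2 and 3. The phloem regulator OPS had 531, 901 and 1026 at 48 h, against 781, 955 and 658 at 36 h (0.00 ± 0.44), after 0.85.

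Of 12 measured expansins 8 were lower at 48 h and 4 higher, and 2, EXPA4 and EXPA15, met the rule for levelled off. The 48 h arrays lay wholly below the 36 h arrays for 3 of the 12, beside 6.28% of all probe sets. These were EXPA16, described above, EXPA20 (-0.31 ± 0.59) and EXPB2 (-0.52 ± 0.93). EXPA4 had 10719, 10264 and 9928 at 48 h, against 10107, 10126 and 12108 at 36 h (-0.06 ± 0.29), after 0.68. EXPA15 had 1422, 1373 and 1535 at 48 h, against 1281, 1369 and 2224 at 36 h (-0.13 ± 0.37), after 1.08. EXLA1, an expansin-like gene, went the other way, with 3962, 922 and 665 at 48 h, against 556, 589.9 and 332 at 36 h (1.49 ± 0.73), after 1.45. It did not overlap between the groups and was called higher at 48 h than at 24 h. The median of the list was -0.21 after 0.70, and -0.07 with the replicate block and the unnumbered array left out. Folding and secretion genes of the endoplasmic reticulum were the steadiest list of more than 15 members, with 16 of 20 intervals within 2-fold and a median of 0.14. The other 4 were AT1G18830, BZIP60, ATSYP24 and SEC5B, with wider intervals. Of these AT1G18830, a SEC31A coat protein gene picked out after its value was seen, had 114, 226 and 50.3 at 48 h, against 30.2, 26.4 and 36 at 36 h (1.83 ± 0.65), with no overlap. Its 36 h signals lay near the filter value of 30.7. The chaperone genes ATERDJ2A (-0.22 ± 0.20) and ATERDJ3B (-0.26 ± 0.23) lay wholly below their 36 h arrays, by small differences within the rule.

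Genes of light harvesting and carbon fixation had their large decrease before the late step. The photosystem list, with 14 members, had a median of -3.13 at 24 h against 0 h, -0.70 at 36 h against 24 h and -0.12 at 48 h against 36 h. Here 6 members were higher and 8 lower at 48 h. LHCB4.1, a light-harvesting protein of photosystem II, had 2393, 2541 and 1191 at 48 h, against 2222, 3571 and 1226 at 36 h (-0.14 ± 0.41). Leaving out single arrays moved this list's median between -0.42 and 0.18. The 4 measured genes of carbon fixation and photorespiration had a median of -0.16, and 3 of their 4 intervals lay within 2-fold.

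Classes of probe sets defined before 36 h share no array with the late step. Of 4877 called higher at 24 h than at 0 h (27.4%), 1622 were higher at 48 h than at 36 h (33.3%, beside 48.5% of all probe sets), with a median of -0.11. Of the 4877, 664 lay wholly below the 36 h arrays and 120 wholly above, beside 6.28% and 5.66% of all probe sets. Of 3966 called lower at 24 h than at 0 h (22.2%), 52.6% were higher in the late step, with a median of 0.02. Of 177 called higher at 24 h than at 12 h (0.993%), the late step had a median of 0.04, with 107 higher (60.5%), after a median of 1.31 at 36 h against 24 h. The pair medians of this last class were -0.42, -0.06 and 0.70, the same order as for the mitotic genes. For the 43 called lower at 24 h than at 12 h (0.241%) the late median was 0.

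At 36 h against 24 h, 20 probe sets were called higher (0.112%) and 0 lower (0%), with 2100 at an unadjusted p under 0.05. The late step of the 20 was 0.34 to 1.91, with a median of 0.73 after 2.93. In 7 of the 20 the 48 h arrays lay wholly above the 36 h arrays, as in 5.66% of all probe sets. This class shares the 36 h arrays with the late step, where a high 36 h signal lowers the late difference. Of the 20, 6 have a gene, each known here by number only. AT5G51890 had 11969, 7419.7 and 7829.5 at 48 h, against 8371, 6549 and 3389 at 36 h (0.63 ± 0.36), after 2.99. AT3G54040 had 5783, 2470.4 and 3047 at 48 h, against 3045, 1743 and 1654 at 36 h (0.77 ± 0.31), after 2.23. AT1G65810 had 91.6, 104 and 172 at 48 h, against 50.8, 27 and 22.8 at 36 h (1.91 ± 0.43), after 3.66, with no overlap. In each the late step was smaller than the earlier one, and none of the 6 had a 95% interval within 2-fold, so none met the rule for levelled off. The difference between the 2 steps was itself tested over all probe sets: 0 were called (0%), and 263 had an unadjusted p under 0.05, where a flat distribution gives 891. No gene is therefore shown to have slowed or sped up after 36 h.

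Hormone and stress lists held few measured genes. Of 12 auxin genes 6 were higher and 6 lower, with a median of 0.07. GH3.3, which conjugates auxin to amino acids, had 13174, 14733 and 7812 at 48 h, against 10744, 12157 and 12220.0 at 36 h (-0.02 ± 0.56), and LBD16, a transcription factor of lateral root formation, had 16.9, 23.4 and 28.7 at 48 h, against 2.24, 36.4 and 19.4 at 36 h (0.95 ± 0.86). The cytokinin response regulators ARR15 and RR16 differed by -0.12 ± 0.99 and 0.60 ± 0.64. EXO and BRL1 of the brassinosteroid list differed by 0.40 ± 0.47 and 0.29 ± 0.37. Among 11 genes of abscisic acid and drought the range ran from -1.53 for LEA4-5 to 1.91 for AtLEA4-1, with a median of -0.10. Of 3 reference genes GAPC2 differed by -0.03 ± 0.18, PEX4 by 0.16 ± 0.22 and ACT11 by 0.53 ± 0.59.

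**Figure D5:**
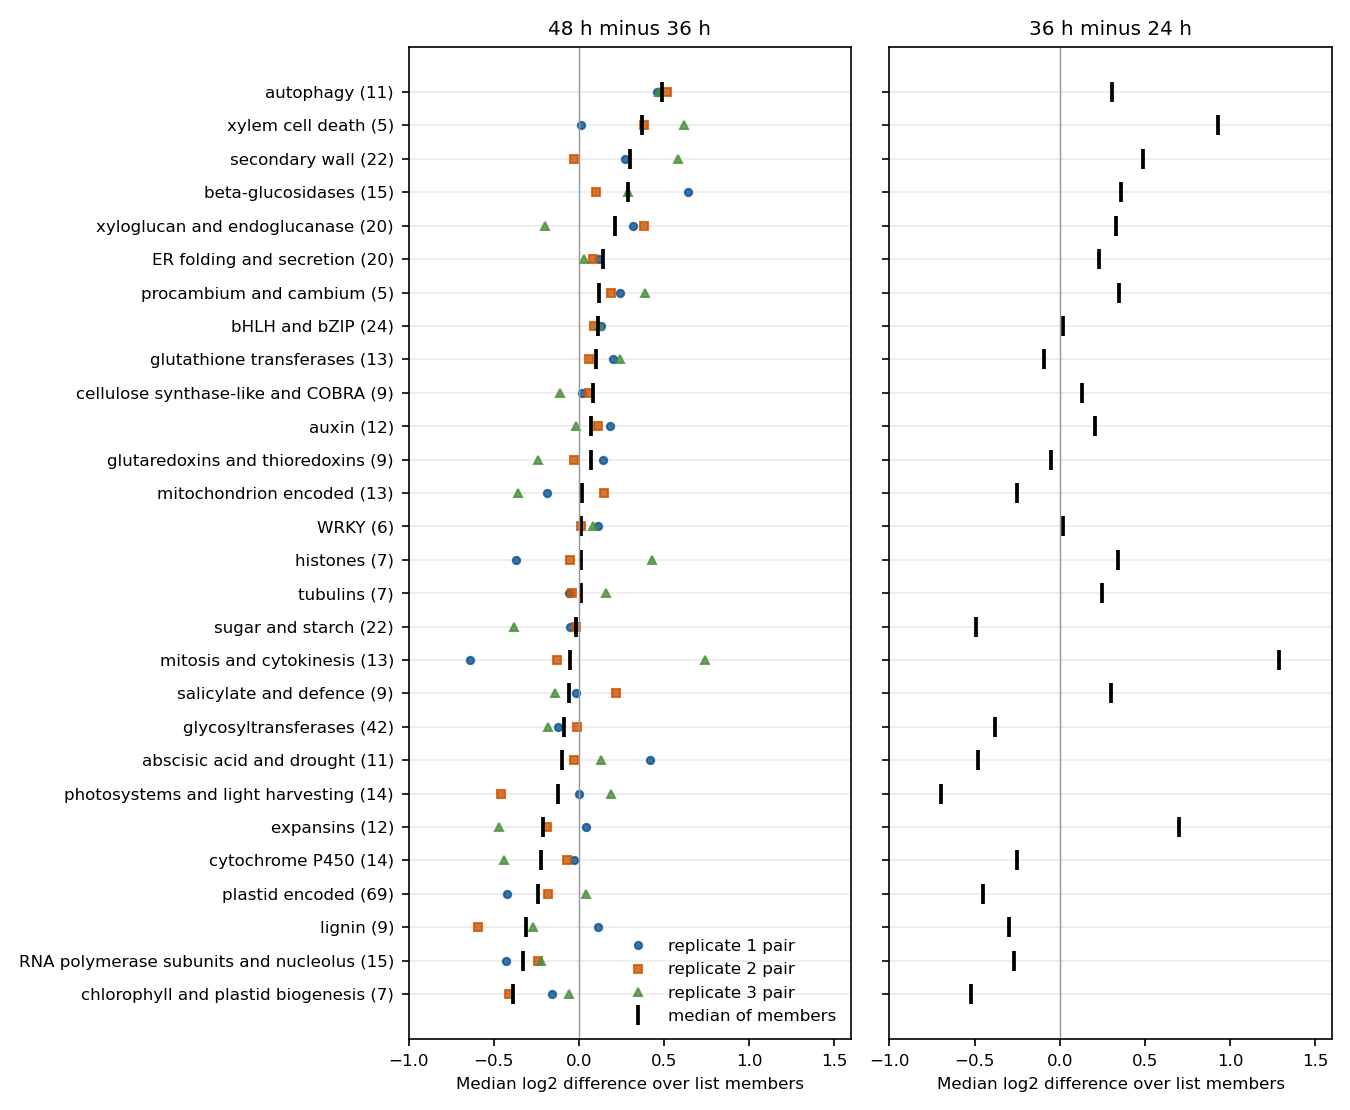
Median log2 difference over the members of each list with at least 5 measured genes (number in brackets), at 48 h against 36 h with the 3 replicate pairs (left) and at 36 h against 24 h (right). Autophagy is at the top with its 3 pairs between 0.46 and 0.52, mitosis stands at -0.05 with pairs from -0.64 to 0.74, and its earlier step was 1.29.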

How the data were processed

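RNA of 15 leaf disk samples had been labelled as biotinylated cRNA and hybridised to Affymetrix arrays in 1 colour, as the labels' protocols say. The deposited intensities are the authors' linear probe-set signals, made with MAS5 in GCOS per the submitters' processing notes, of versions not stated there. Log2 signals without an offset were fitted in limma 3.58.1 (R 4.3.3) with 5 group means, and moderated two-sided tests were adjusted by Benjamini-Hochberg. Controls (64 probe sets) did not enter the fit. To pass the filter a probe set needed its highest group mean of log2 signal to reach percentile 30 (a signal of 30.7). Of 22746 probe sets 13513 list 1 gene, 503 several, and 8730 are unnamed here; 13436 matched the RefSeq gene table. The 12 highest and 12 lowest genes required groups without overlap and a group mean of 100. Some list members were named by largest change, and others after their values were seen. The largest late change of several lists is not named, such as 1.55 among the photosystem genes and -1.4 among the mitochondrion-encoded genes. The members, lists and markers were chosen with earlier results of these data known, and 5 genes were removed from lists because their symbols belong to other proteins. Arrays of the same number deviated together (r = 0.476, 0.324 and 0.463), so the labels' numbers were treated as pairs in an alternative fit. The fit was also run on simulated data with independent noise in each array. That setting leaves out the shared deviations of same-number arrays, so it cannot show how they affect the fit.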

Additional observations from a re-analysis of the deposited data

How the results depend on the processing

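The call count between 48 h and 36 h was 0 by limma under all 19 alternatives, whose lowest adjusted p was 0.0934 with only the 36 h and 48 h arrays, and the change of step had 0 calls under all 18. Probe sets with an unadjusted p under 0.05 numbered 424 higher, or 228 to 493 without single replicates (the lowest without the 48 h array of replicate 1), and 218 lower, or 137 to 287 (the lowest without the 36 h array of replicate 2). The lower count was 393 with only the 36 h and 48 h arrays, 486 with the 24 h arrays added (chosen after seeing the data) and 373 with the replicate block. Over the probe sets called lower at 48 h than at 24 h, the median late step of -0.53 was -0.47 with an offset of 16, -0.48 with the replicate block and the unnumbered array left out, and -0.61 to -0.45 without single replicates. Over those called higher it was 0.45 to 0.73 without single replicates. Calls between 48 h and 24 h numbered 731 higher and 412 lower; the replicate block gave 1191 and 838. The lower calls were 263 with no filter, 721 with median centring, 638 with quantile normalization, 874 with the 24 h, 36 h and 48 h arrays and 695 with the block and the unnumbered array left out. With the block and that array left out, the secondary wall median was 0.07, the cell-death protease median 0 and the procambium median 0.42. The autophagy median was 0.40 to 0.63 without single replicates. The lowest adjusted p of the 12 highest and 12 lowest genes over the alternatives was 0.317. The causes of these shifts were not tested. Signals near the filter value of 30.7 and 3 arrays per time limit what can be seen.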

Other observations

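Lists of secondary metabolism and wall turnover not described above were mixed. Of 20 xyloglucan and endoglucanase genes 15 were higher at 48 h in the late step. Their median was 0.21, and the pair medians were 0.32, 0.38 and -0.20. XTH20, a xyloglucan-modifying enzyme, had 318, 1412 and 1999 at 48 h, against 158, 649 and 1342 at 36 h (0.90 ± 0.85), with more spread between replicates than between times. GH9B12, an endoglucanase-type protein, was the member without overlap, with 17.7, 4.78 and 18.3 at 48 h, against 23, 23.2 and 39.3 at 36 h (-1.26 ± 0.48). All of these signals but that of the 36 h array of replicate 3 lay under the filter value of 30.7. Of 13 glutathione transferases 7 were higher and 6 lower, and GSTU20 had 3536, 537 and 198 at 48 h, against 6091, 5291 and 397 at 36 h (-1.70 ± 1.15), again with replicates far apart. Of 14 cytochrome P450 genes 10 were lower, with a median of -0.22, and of 42 glycosyltransferases 26 were lower, with a median of -0.09.

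Of 24 bHLH and bZIP transcription factor genes 17 were higher at 48 h, with a median of 0.11 and 14 intervals within 2-fold. RL2, listed as RHD-like2 and in no list, had 1495, 479 and 638 at 48 h, against 652, 253 and 334 at 36 h (1.02 ± 0.41, limma's unadjusted p = 0.0282). Among 13 mitochondrion-encoded genes nad5, a subunit of respiratory complex I, had 19.3, 29.3 and 32.4 at 48 h, against 52.7, 49 and 48.4 at 36 h (-0.92 ± 0.39). Its 48 h signals lay near or under the filter value of 30.7. Of the 13, 7 were higher at 48 h and 6 lower, the lowest late step was -1.4, and the median of the list was 0.02. PDF2.1, a plant defensin gene, had 1701, 9314 and 13031 at 48 h, against 826, 4649 and 6585 at 36 h (1.01 ± 0.99), higher in each pair but with replicate 1 several-fold under the others at both times. WRKY20, a transcription factor gene, had 530.0, 527 and 536 at 48 h, against 491, 442 and 441 at 36 h (0.21 ± 0.22), a small difference without overlap.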
